A study of Mus musculus with 40 samples.

Results

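The renal cortex of diabetic and non-diabetic mice was compared while both genotypes received the same drug. Diabetic mice carried 1 copy of the Ins2-Akita allele of the insulin 2 gene (Akita mice), and their wild type littermates (WT mice) did not. All were male C57BL/6J mice that were gavaged daily with MitoGamide, a mitochondria-targeted scavenger of reactive dicarbonyls such as methylglyoxal, at 10 mg/kg in 10% ethanol from 6 to 22 weeks of age. Each group held 5 mice with 1 library each, so these are 10 of the 40 libraries of the series. The comparison shows how diabetes differed from its absence with the drug present in both groups, and it does not measure the effect of the drug. It covered the 16674 of 55401 gene identifiers with a mean of at least 10 estimated counts over the 10 libraries.

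The Akita allele makes a misfolded proinsulin in pancreatic beta cells, so that the mice lack insulin from a young age without being obese. In the kidney, filtered glucose is taken back by the proximal tubule, which also makes glucose, burns fatty acids and expresses many genes under androgen control in male mice. Prolonged high glucose is known to enlarge tubules and to raise the matrix that glomeruli and tubules rest on. The allele lies in a gene that the renal cortex hardly expresses. Ins2 had 1 count in Akita replicates 2 and 3 and 0 in the other 8 libraries, so the genotype could not be checked from these counts.

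Total counts ranged from 11690029 to 21357309 per library. Akita replicate 5 stood apart from its group, with a mean correlation of log2 CPM with the other Akita libraries of 0.955, against 0.972 to 0.976 for the other Akita libraries and 0.976 to 0.981 for the WT libraries. Levels are in CPM, counts in proportion to the library, scaled to the tested genes of each library with TMM normalisation, unless given as CPM of the library total. WT replicate 5 held more matrix and immune RNA than the other WT libraries. Counts on the mitochondrial genome averaged 307000 ± 27900 CPM of the library total among Akita and 263000 ± 12400 among WT mice (SD, n = 5), with p = 0.00794 by a 2-sided exact permutation test of the log2 shares, the smallest value that 5 against 5 mice allow. The groups were barely apart, with 280000 CPM in the lowest Akita library and 278100 CPM in the highest WT library. With the TMM effective library size p was 0.0159 by the same test. Where leaving out Akita replicate 5 or WT replicate 5 changed the call of a gene described here, this is given beside its value.

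With edgeR's quasi-likelihood test, 2386 genes (14.3% of those tested) had an adjusted p under 0.05 and are named as called below. At an unadjusted p under 0.05 there were 5182 (31.1%). Of the called genes, 1286 (7.71%) were higher and 1100 (6.6%) lower in Akita mice. Called changes were mostly small, with a median size of 0.66 on the log2 scale, and 1014 of them were under 1.5-fold. More than 2-fold changes were called for 239 higher and 302 lower genes. The 5 Akita and the 5 WT values did not overlap for 1679 of the called genes, while 12.8% of all tested genes showed no overlap. The median log2 fold change over all tested genes was 0.01, and 8559 of them had a positive value. The number of calls depended on single libraries. It was 1404 without Akita replicate 2, 1368, 1248, 1451 and 1388 without WT replicates 1, 2, 3 and 4, and 2822 without Akita replicate 5. Of the 2386 genes, 1055 kept their call in all 10 fits with 1 library omitted, and of the 201 called genes among those named, 145 did so in each fit that tested them. Of 266 groups of 5 values examined, 49 held a value far from the other 4 by Dixon's criterion, and 31 of these were of Akita replicate 5. About 13.3 would be flagged by chance in independent groups. These groups share 10 libraries, and some genes were chosen after their values were seen, so the 2 numbers cannot be compared as a test. DESeq2 called 3082 genes (18.5%).

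Among the protein-coding genes without overlap, Kynu had the smallest p. It encodes kynureninase, a vitamin B6-dependent enzyme of tryptophan breakdown (ENSMUSG00000026866.16, chromosome 2, 43555329 to 43682715 of GRCm38). Kynu was at 35.3, 44.9, 33.7, 31.9 and 33.6 CPM in the 5 Akita mice and at 8.35, 8.57, 6.66, 6.38 and 7.82 CPM in the 5 WT mice. Its means were 35.9 ± 5.17 and 7.55 ± 0.988 CPM (SD, n = 5), and the log2 fold change was 2.25 (standard error, SE, 0.12), with an adjusted p of 3.82e-06 in edgeR's quasi-likelihood test. Every Akita mouse lay more than 3-fold above every WT mouse. Gsta2, a glutathione transferase (ENSMUSG00000057933.10, chromosome 9, 78331018 to 78355788), was at 287, 326, 272, 268 and 378 CPM in Akita and 113, 113, 102, 116 and 111 CPM in WT mice. The WT values lay close together and the Akita values were all above 2-fold of the highest of them, with a log2 fold change of 1.46 (SE 0.10, adjusted p = 1.68e-05). Gsta1 and Gsta2 are near-identical copies, so their reads may have been divided between them. Eda2r, a receptor of the ectodysplasin pathway that p53 induces (ENSMUSG00000034457.10, chromosome X, 97333840 to 97377216), was at 4.62, 3.63, 2.8, 2.73 and 4.03 CPM in Akita and 0.385, 0.618, 0.392, 0.269 and 0.361 in WT mice, giving a log2 fold change of 3.14 (SE 0.26, adjusted p = 5.36e-05). The lysophospholipase-like gene Lyplal1 rose by 1.26, Olfm1, which encodes olfactomedin 1, by 0.85 and the tight junction gene Cldn4 by 1.16 on the log2 scale, each without overlap.

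Lpl led the genes that were lower. It encodes lipoprotein lipase, which frees fatty acids from circulating triglyceride (ENSMUSG00000015568.16, chromosome 8, 68880491 to 68907448). Akita mice had 102, 107, 118, 124 and 76.9 CPM and WT mice 440.1, 437, 522, 424 and 418 CPM, with means of 106 ± 18.2 and 448 ± 42.1 (SD, n = 5), and the log2 fold change was -2.09 (standard error, SE, 0.13), with an adjusted p of 6.59e-06 in edgeR's quasi-likelihood test. Cntnap5a, a neurexin-like adhesion protein (ENSMUSG00000070695.4, chromosome 1, 115684756 to 116587323), was nearly lost in Akita mice, at 0.140, 0.267, 0.323, 0.614 and 0.158 CPM against 7.0, 4.95, 9.21, 7.05 and 8.27 CPM in WT mice, giving a log2 fold change of -4.56 (SE 0.30, adjusted p = 1.36e-05). The Akita values of Cntnap5a rest on few counts per library. Cpe, a carboxypeptidase that processes prohormones (ENSMUSG00000037852.8, chromosome 8, 64592542 to 64693054), was at 12.1, 13.4, 10.9, 12 and 11.7 CPM in Akita and 31.7, 28.4, 33.4, 26.4 and 36.9 in WT mice, giving a log2 fold change of -1.38 (SE 0.10). Ly6e, a surface protein induced by interferon (ENSMUSG00000022587.14, chromosome 15, 74955051 to 74959905), was at 60.2, 85.2, 63.6, 66.7 and 81.3 CPM in Akita and 175, 169, 197, 159 and 193 in WT mice, giving a log2 fold change of -1.32 (SE 0.11). In all of these genes the groups were apart in every mouse. Il34, a ligand of the macrophage growth factor receptor, changed by -2.03, Srd5a2, which encodes a steroid 5-alpha reductase, by -1.95, Azgp1, a zinc-binding glycoprotein, by -1.99, Hrg, the histidine-rich glycoprotein, by -2.59 and the hepatocyte growth factor receptor Met by -1.1 on the log2 scale. The leading genes named so far kept their call in every fit with 1 library omitted.

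**Figure D1:**
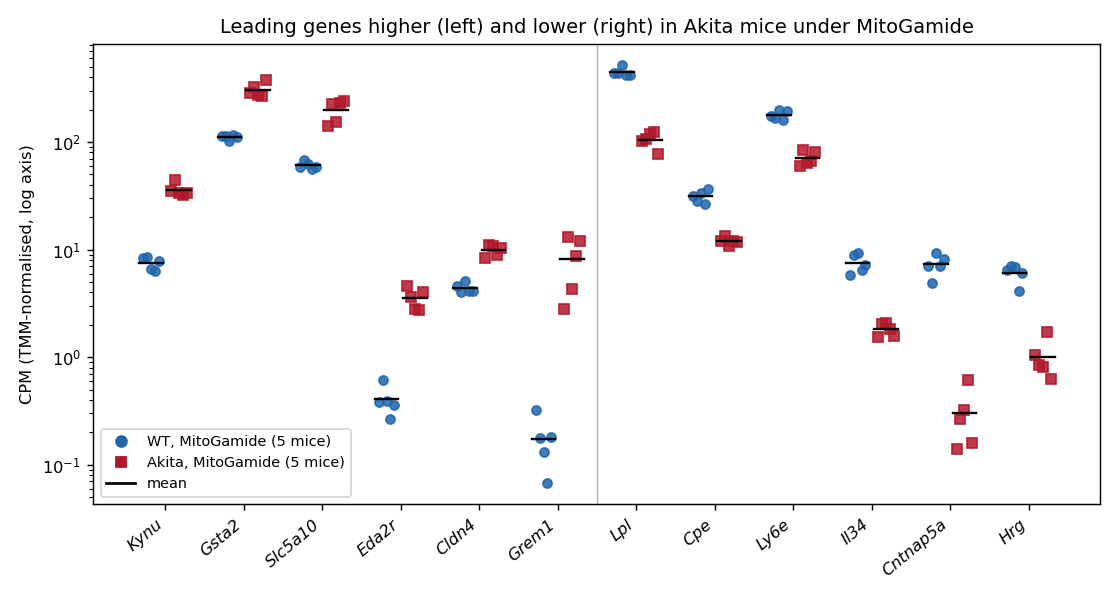
CPM on a log axis of 6 genes that were higher and 6 that were lower in Akita mice (red squares, 5 mice) than in WT mice (blue circles, 5 mice), all on MitoGamide, with the group mean as a black line. The groups do not overlap in any of the 12 genes, and Kynu sits between 31.9 and 44.9 CPM in Akita and between 6.38 and 8.57 CPM in WT mice.

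Some genes of sugar transport and glucose production were higher. Of 17 tested sugar transporter genes, 6 were called higher and 0 lower (between 3 and 7 higher when single libraries were omitted), with a median log2 fold change of 0.32. Among the sodium-coupled transporters, Slc5a10 (SGLT5, a transporter of mannose and fructose on the proximal tubule brush border, ENSMUSG00000042371.12, chromosome 11, 61672781 to 61720826) was at 140, 224, 153, 232 and 241 CPM in Akita and 59.1, 67.6, 62.6, 55.8 and 59.1 in WT mice. It rose by 1.7 (SE 0.15, with an adjusted p of 9.69e-05 in edgeR's quasi-likelihood test). Slc5a1, which encodes the late proximal glucose transporter SGLT1, was at 52.5, 65.8, 56.7, 59.3 and 98.5 CPM in Akita and 41.4, 49.5, 41.5, 35.5 and 49.9 in WT mice, giving a log2 fold change of 0.61 (SE 0.16, adjusted p = 0.0284). Its groups did not overlap, but the call was lost without Akita replicate 2 or WT replicates 1, 3 or 4 (adjusted p up to 0.0714). Slc5a2, which encodes SGLT2, the main glucose transporter of the early proximal tubule, overlapped between the groups, at 270.3, 197, 231, 249.7 and 263 CPM in Akita and 186, 216, 274, 291 and 257 in WT mice, with a log2 fold change of -0.02 (SE 0.13, adjusted p = 0.943). Of the facilitative transporters, the fructose transporter Slc2a5 rose by 1.25 and the urate and sugar transporter Slc2a9 by 1.17 on the log2 scale. Slc2a9 was at 28.3, 27, 28.5, 24.7 and 48.7 CPM in Akita and 14.6, 14.3, 15.1, 12.9 and 12.7 in WT mice, with Akita replicate 5 far above the rest, and without that library it rose by 0.96. Slc2a1 (GLUT1) rose by 0.44, and Slc2a2 (GLUT2), the basolateral exit of the proximal tubule, differed by 0.48 with an adjusted p of 0.0526. Slc2a2 was called at 0.30 without Akita replicate 5 (adjusted p = 0.0342), at 0.53 without WT replicate 5 and also without Akita replicate 2. The call of Slc2a1 was lost without Akita replicates 2, 3 or 4 or WT replicates 1, 2, 3, 4 or 5.

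Of 27 tested genes of gluconeogenesis and glycolysis, 14 were called higher and 0 lower, with a median log2 fold change of 0.34 (between 7 and 15 higher when single libraries were omitted). Of the 7 gluconeogenic enzymes 3 were called higher and 4 had a positive log2 fold change, and of the 20 glycolytic genes 11 were called higher. Pck1, the rate-limiting enzyme of gluconeogenesis (ENSMUSG00000027513.11, chromosome 2, 173153048 to 173159273), was at 2950, 3509, 2388, 3888 and 8086 CPM in Akita and 1256, 1723, 1647, 1530 and 1219 in WT mice, giving a log2 fold change of 1.5 (SE 0.29, with an adjusted p of 0.00692 in edgeR's quasi-likelihood test). Akita replicate 5 was highest by far, and without it Pck1 rose by 1.11. Fbp1, which encodes fructose bisphosphatase, rose by 0.43 and the mitochondrial Pck2 by 0.37, whereas G6pc, which releases free glucose, differed by -0.20 with an adjusted p of 0.67. Without Akita replicate 5, its highest Akita library, G6pc was called lower, at -0.61 (adjusted p = 0.0101). Among glycolytic genes, Eno1, which encodes enolase 1, was at 807, 850, 679.5, 894 and 949 CPM in Akita and 388, 414, 454, 484 and 473 in WT mice, giving a log2 fold change of 0.92 (SE 0.11, adjusted p = 0.000491). The pyruvate kinase genes Pklr and Pkm rose by 1.01 and 0.83, the aldolase gene Aldoc by 1.18 and Pfkfb3, which encodes an activator of phosphofructokinase, by 1.3. Tkfc, which encodes an enzyme of fructose breakdown, rose by 0.50 (adjusted p = 0.03). Of 12 tested genes that detoxify dicarbonyls or glycated proteins, 2 were called higher and 1 lower. Glo1, whose product glyoxalase 1 removes methylglyoxal, was at 52.4, 60.5, 57.5, 54.6 and 51.8 CPM in Akita and 53.7, 64.3, 64.2, 58.1 and 59.6 CPM in WT mice, giving a log2 fold change of -0.11 (SE 0.08, adjusted p = 0.324). Hagh, which encodes the next enzyme of that pathway, glyoxalase 2, rose by 0.38 (SE 0.09, adjusted p = 0.0225), a call lost without Akita replicate 2 or WT replicates 1 or 2. The call of Fbp1 was lost without Akita replicate 2 or WT replicates 1, 2 or 4, that of Pck2 without Akita replicates 1, 3 or 4 or WT replicates 1, 2 or 4 and that of Tkfc without Akita replicates 2 or 4 or WT replicates 1, 2 or 3. Pfkfb3 rose by 0.67 without Akita replicate 5, and its call was lost without Akita replicate 2 or WT replicates 1, 2, 3, 4 or 5.

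Genes of fatty acid oxidation and other targets of PPAR-alpha, a fatty acid sensor, were higher in part. Of 41 tested, 17 were called higher, 2 lower and 22 not called, with a median log2 fold change of 0.37 (between 10 and 19 higher when single libraries were omitted). The receptor Ppara and its coactivator Ppargc1a, which encodes PGC-1α, differed by 0.23 and 0.17, with adjusted p of 0.154 and 0.317 in the edgeR test. Ppargc1a was at 90.4, 90.8, 79.5, 77.4 and 114 CPM in Akita and 95.4, 79.4, 77.9, 73.1 and 75.5 in WT mice, so that the groups overlapped. Of the mitochondrial enzymes, Hadha, which encodes the trifunctional protein of beta-oxidation, rose by 0.54, Acaa2 by 0.81, the muscle-type carnitine transferase Cpt1b by 0.88 and the carnitine carrier Slc25a20 by 0.67. Bdh1, which interconverts ketone bodies, fell by 0.95 on the log2 scale. The microsomal Cyp4a14, a fatty acid hydroxylase that is also higher in kidneys of female mice (ENSMUSG00000028715.2, chromosome 4, 115486200 to 115496142), was at 271, 525, 499.5, 400.5 and 1551 CPM in Akita and 73.5, 68.6, 17.7, 64.7 and 56.8 in WT mice, giving a log2 fold change of 3.53 (SE 0.50, adjusted p = 0.00141) and 2.91 without Akita replicate 5. Cyp4a10, another hydroxylase, rose by 1.94 and Vnn1, which encodes a pantetheinase, by 1.0. Pdk4, which shuts pyruvate out of the mitochondrion, was at 299 CPM in Akita replicate 5 and between 13.6 and 37.6 CPM in the other Akita mice, with a log2 fold change of 2.25 (adjusted p = 0.0754) that was 0.50 without Akita replicate 5. Of 14 tested genes of lipoprotein and triglyceride handling, 4 were called higher and 2, one of them Lpl, lower (1 to 4 and 2 to 3 when single libraries were omitted), with a median log2 fold change of 0.32. Cd36, a fatty acid receptor, changed by -0.90, while Gpihbp1, the endothelial anchor of lipoprotein lipase, rose by 1.02. In fatty acid and cholesterol synthesis, 3 of 33 tested genes were called higher and 4 lower (2 to 5 and 1 to 4 when single libraries were omitted). The call of Acaa2 was lost without WT replicates 1, 2 or 3, that of Bdh1 without WT replicates 2 or 3, that of Cd36 without Akita replicate 3 or WT replicates 1, 2 or 3 and that of Gpihbp1 without WT replicates 1, 2, 3 or 4.

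Some nuclear genes of the respiratory chain were higher by small amounts. Of 82 tested subunits, 21 were called higher, 0 lower and 61 not called (between 8 and 31 higher when single libraries were omitted). The log2 fold change was positive for 80 of them, with a median of 0.21, and for 8559 of all 16674 tested genes. Uqcrq of complex III and Ndufa7 of complex I rose by 0.53 and 0.53, and Atp5o of the ATP synthase by 0.45 on the log2 scale. Ndufb8, a complex I subunit (ENSMUSG00000025204.10, chromosome 19, 44548572 to 44555440), was at 119.7, 133, 122, 138 and 125 CPM in Akita and 87.7, 97.7, 104, 106 and 103 in WT mice, giving a log2 fold change of 0.35 (SE 0.08, with an adjusted p of 0.0116 in edgeR's quasi-likelihood test). None of the 15 protein and rRNA genes of the mitochondrial genome was called by edgeR (0 at an unadjusted p under 0.05), with a median log2 fold change of 0.07, although their summed share was higher in every Akita library. DESeq2 called 1 of the 15. Of 77 tested cytosolic ribosomal protein genes, 16 were called higher, 0 lower and 61 not called, with a median log2 fold change of 0.17. Without WT replicate 2 only 2 were called higher, and without Akita replicate 5 there were 21. In the TCA cycle and the entry of pyruvate, 10 of 35 genes were called higher and 1 lower (between 2 and 13 higher when single libraries were omitted). Cs, which encodes citrate synthase, rose by 0.23. Pdk1 and Pdp1, which encode a kinase and a phosphatase of pyruvate dehydrogenase with opposite action, rose by 0.91 and 0.87. In a list of 20 genes of mitochondrial fission, fusion and mitophagy, 0 were called by edgeR, 1 had an unadjusted p under 0.05 and 1 was called by DESeq2. None of the 37 tested proteasome genes was called by edgeR, while 8 had an unadjusted p under 0.05 and DESeq2 called 2. The call of Cs was lost without Akita replicates 2, 3 or 4 or WT replicates 1, 2, 3, 4 or 5 and that of Pdp1 without Akita replicates 2, 3 or 4 or WT replicates 1, 2, 3 or 4.

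The kynurenine pathway did not move as a block. Of its 10 tested genes, 1 was called higher, 2 lower and 7 not called, with a median log2 fold change of -0.28. Kynu rose, but Aadat, which makes kynurenic acid, changed by -1.03 and Afmid, which makes kynurenine, by -0.82 on the log2 scale, both called. Pdxk, which encodes the kinase that activates vitamin B6 (ENSMUSG00000032788.15, chromosome 10, 78436744 to 78464975), was at 142, 198, 151, 182 and 208 CPM in Akita and 84, 96.5, 75.6, 73.7 and 75.6 in WT mice, giving a log2 fold change of 1.12 (SE 0.12, with an adjusted p of 0.000271 in edgeR's quasi-likelihood test). Nampt, the rate-limiting enzyme of NAD salvage, rose by 0.63. Of 49 tested genes of amino acid breakdown, 10 were called higher and 5 lower (6 to 11 higher when single libraries were omitted). Bhmt, which remethylates homocysteine, was at 15.6, 17.2, 15.9, 11.9 and 82.2 CPM in Akita and 4.17, 4.06, 3.85, 4.23 and 3.21 in WT mice. It rose by 2.87 (SE 0.52, adjusted p = 0.00523) and, without the high Akita replicate 5, by 1.96. Glud1, which encodes glutamate dehydrogenase, rose by 0.91 and the glycine decarboxylase gene Gldc by 1.34, whereas Cbs, which encodes the enzyme that draws homocysteine towards cysteine, changed by -1.06. Without Akita replicate 5 Glud1 rose by 0.56 and Gldc by 0.69, and the calls were lost without WT replicates 1, 2, 3 or 4 for Glud1 and without Akita replicates 2 or 4 or WT replicates 1, 2, 3 or 4 for Gldc.

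Enzymes of drug metabolism changed in both directions. Of 42 tested, 9 were called higher and 12 lower (4 to 11 and 8 to 15 when single libraries were omitted), with all 5 called of 8 tested carboxylesterases lower. Ces1g, a carboxylesterase (ENSMUSG00000057074.6, chromosome 8, 93302369 to 93337308), was at 0.700, 0.801, 0.969, 0.409 and 0.632 CPM in Akita and 7.32, 11.4, 15.1, 3.96 and 11.1 in WT mice, giving a log2 fold change of -3.76 (SE 0.36, with an adjusted p of 0.000125 in edgeR's quasi-likelihood test). Cyp4b1, a cytochrome P450 of the proximal tubule, was at 851, 767, 739, 1114 and 648 CPM in Akita and 2300, 2420, 2814, 2171 and 2214 in WT mice, giving a log2 fold change of -1.53 (SE 0.15, adjusted p = 0.000132). On the other side, Ugt1a2, a glucuronosyltransferase (ENSMUSG00000090171.1, chromosome 1, 88200601 to 88218997), was at 87.6, 319, 303, 60.9 and 789 CPM in Akita and 9.25, 7.24, 5.81, 6.99 and 5.88 in WT mice. Its rise of 5.47 (SE 0.65, adjusted p = 0.000543) was 4.78 without Akita replicate 5, and the Akita mice differed among themselves by more than 10-fold. Ugt1a10 rose by 3.67 and Ugt1a1 by 2.18, and Ugt1a6b changed by -0.67, but genes of this locus share their last exons and their reads may have been divided among them. Aldh1a1 and Aldh1a7, near-identical aldehyde dehydrogenases that make retinoic acid or clear aldehydes, rose by 2.57 and 2.25. The call of Ugt1a6b was lost without Akita replicate 2 or WT replicates 1 or 4.

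Among 38 tested genes of antioxidant defence and targets of NRF2, 12 were called higher and 1 lower (between 9 and 13 higher when single libraries were omitted). The regulators Nfe2l2, which encodes NRF2, and Keap1 differed by 0.20 and 0.02 and were not called. Of the enzymes, the carbonyl reductases Cbr1 and Cbr3 rose by 1.85 and 2.56, the epoxide hydrolase Ephx1 by 1.79, the quinone reductase Nqo1 by 1.08 and the lipid peroxide reductase Gpx4 by 0.54 on the log2 scale. Cbr3 was at 1.33, 4.27, 2.75, 3.75 and 5.05 CPM in Akita and 0.321, 0.442, 0.522, 0.470 and 0.994 in WT mice. Gclm, a subunit of the glutathione-making ligase, fell by 0.39, a call lost without Akita replicates 1, 2 or 3 or WT replicates 1, 2, 3 or 5. None of 6 tested NADPH oxidase genes was called by edgeR or DESeq2 or had an unadjusted p under 0.05, including Nox4 (0.25, adjusted p = 0.222).

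Many genes that depend on androgen in the kidney of male mice were lower. Of 13 tested genes that are androgen-responsive or higher in males, 8 were called lower and 0 higher, with a median log2 fold change of -1.36. Of 6 tested female-biased genes, 1 was called higher, 0 lower and 5 not called. All 6 had a positive log2 fold change, with a median of 0.62. With these 6 added, between 5 and 9 of the 19 were lower when single libraries were omitted, a range not computed for the 13 alone. Slco1a1, an organic anion transporter (ENSMUSG00000041698.11, chromosome 6, 141907282 to 141946962), was at 84.1, 59.3, 18, 117 and 9.56 CPM in Akita and 316, 233, 384, 308 and 524 in WT mice, giving a log2 fold change of -2.61 (SE 0.54, with an adjusted p of 0.00998 in edgeR's quasi-likelihood test). Kap, the kidney androgen-regulated protein, was at 3049, 3243, 1599, 6238 and 383 CPM in Akita and 10080, 9721, 9273, 9046 and 9661 CPM in WT mice, with the lowest value in Akita replicate 5. Its log2 fold change was -1.72 (SE 0.50, adjusted p = 0.0398), and the call was lost without Akita replicates 1, 2 or 3 or WT replicates 1, 2, 3, 4 or 5. Hsd17b11, which oxidises androgens (ENSMUSG00000029311.16, chromosome 5, 103989762 to 104021919), was at 85, 56.8, 55.3, 97.7 and 92.7 CPM in Akita and 150, 121, 202, 199 and 210.3 in WT mice, giving a log2 fold change of -1.19 (SE 0.20). Odc1, which makes polyamines, changed by -1.16, and the transporters Slc22a30 and Slc7a13 by -1.53 and -1.61. The call of Slc7a13 was lost without Akita replicates 1, 2 or 3 or WT replicates 1, 2, 3 or 4. Most of these genes are expressed in the proximal tubule. Of its 14 tested markers 4 were called lower, 0 higher and 10 not called (0 were called without Akita replicate 2), with a median log2 fold change of -0.09. Their summed level, as CPM of the library total, ranged from 14300 to 17600 CPM in Akita and from 20100 to 22100 CPM in WT libraries. The part of this difference in the results for proximal tubule genes was not tested, and in bulk tissue fewer cells of a type cannot be told apart from less RNA per cell.

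**Figure D2:**
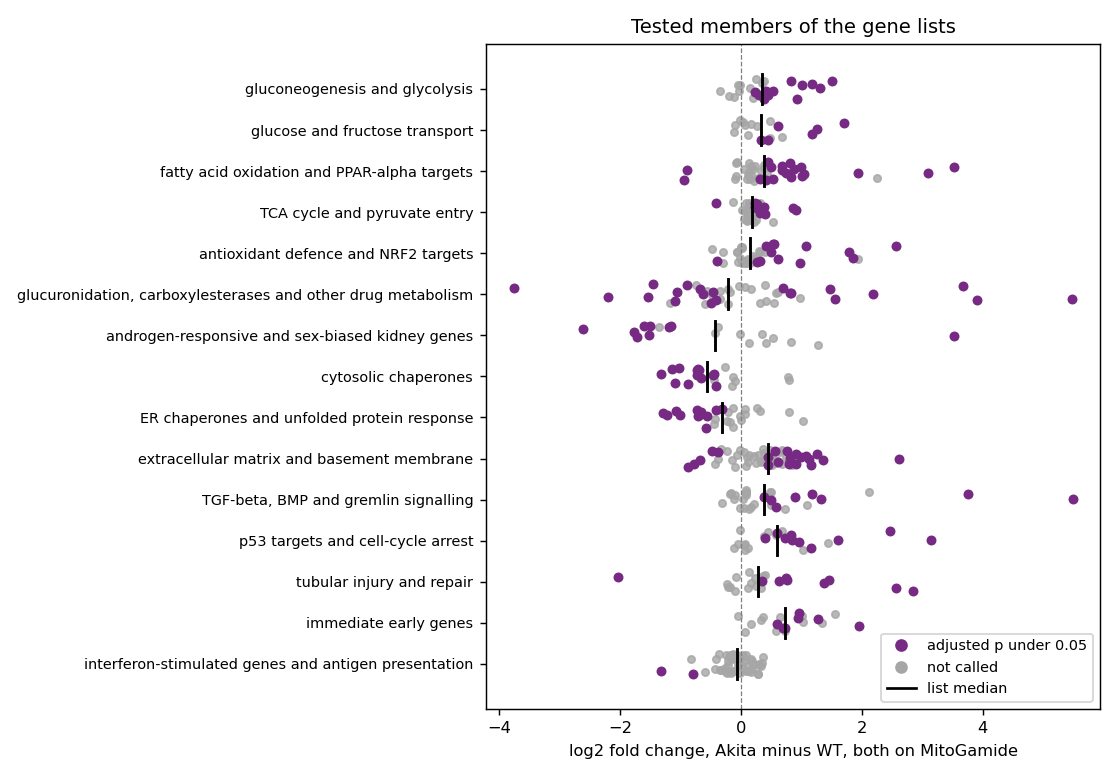
Log2 fold change (Akita minus WT, both on MitoGamide) of every tested member of 15 gene lists, with called genes in purple (adjusted p under 0.05 from edgeR), others in grey and the list median as a black bar. Chaperone and androgen-responsive genes lie mostly left of 0 and those of glycolysis, p53 targets and immediate early genes mostly right of it, with Grem1 at 5.48 and Ugt1a2 at 5.47 the farthest to the right.

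Many chaperone genes were lower. Of 20 tested cytosolic and mitochondrial chaperone genes, 13 were called lower and 0 higher by edgeR, with a median log2 fold change of -0.56, and between 12 and 14 were lower when single libraries were omitted. Hspa1a, an inducible HSP70 (ENSMUSG00000091971.3, chromosome 17, 34969190 to 34972156), was at 12, 11.2, 14.1, 12.5 and 9.64 CPM in Akita and 25.9, 30.03, 28.7, 24.9 and 21.5 in WT mice, giving a log2 fold change of -1.14 (SE 0.12, with an adjusted p of 0.000237 in edgeR's quasi-likelihood test). Its near-identical copy Hspa1b changed by -1.02, and reads may have been divided between both. Hsph1, an HSP110 that renews the nucleotide on HSP70 (ENSMUSG00000029657.15, chromosome 5, 149614287 to 149636376), was at 58.6, 63.6, 66.1, 77.6 and 32.7 CPM in Akita and 119, 157, 148, 163 and 161 in WT mice, giving a log2 fold change of -1.32 (SE 0.18, adjusted p = 0.00129). Hsp90aa1, Hsp90ab1 and the HSP70 co-chaperone Dnaja1 changed by -0.73, -0.71 and -0.87. The mitochondrial chaperonins Hspd1 and Hspe1 changed by -0.45 and -0.41. Hsf1, the heat shock transcription factor, differed by -0.26 (adjusted p = 0.212), and the small heat shock gene Cryab by 0.79 in the other direction (adjusted p = 0.086). Cryab was called higher without Akita replicate 5, at 0.92 (adjusted p = 0.0374), and without Akita replicate 1. The call of Hspd1 was lost without WT replicates 2, 3 or 4.

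Of 27 tested genes of endoplasmic reticulum (ER) chaperones and the unfolded protein response, 12 were called lower and 0 higher (between 8 and 15 lower when single libraries were omitted), with a median of -0.32. Hspa5, which encodes the ER chaperone BiP (ENSMUSG00000026864.13, chromosome 2, 34771970 to 34777547), was at 235, 266, 274, 297 and 147 CPM in Akita and 269, 440.4, 497, 664 and 693 in WT mice, giving a log2 fold change of -1.07 (SE 0.25, with an adjusted p of 0.0155 in edgeR's quasi-likelihood test). Creld2, an ER disulfide isomerase (ENSMUSG00000023272.4, chromosome 15, 88819646 to 88826683), was at 10.3, 11.5, 12.7, 15.2 and 7.03 CPM in Akita and 11.9, 20.2, 25.9, 40.2 and 34.2 in WT mice, giving a log2 fold change of -1.22 (SE 0.29, adjusted p = 0.0175). Both genes overlapped between the groups because WT replicate 1 was low, at 269 CPM for Hspa5 and 11.9 CPM for Creld2. Sdf2l1, a BiP cofactor, changed by -1.3, Manf, a secreted ER protein, by -1.01 and the isomerases Pdia4 and Pdia6 by -0.66 and -0.72. Sensors and effectors were not called, with Atf6 at -0.02, Ern1 at 0.01, Xbp1 at -0.23, Atf4 at 0.07 and Ddit3, which encodes CHOP, at -0.14. Without Akita replicate 5, its highest Akita library, Xbp1 was called lower, at -0.44 (adjusted p = 0.0337). The call of Manf was lost without Akita replicate 2 or WT replicate 4.

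**Figure D3:**
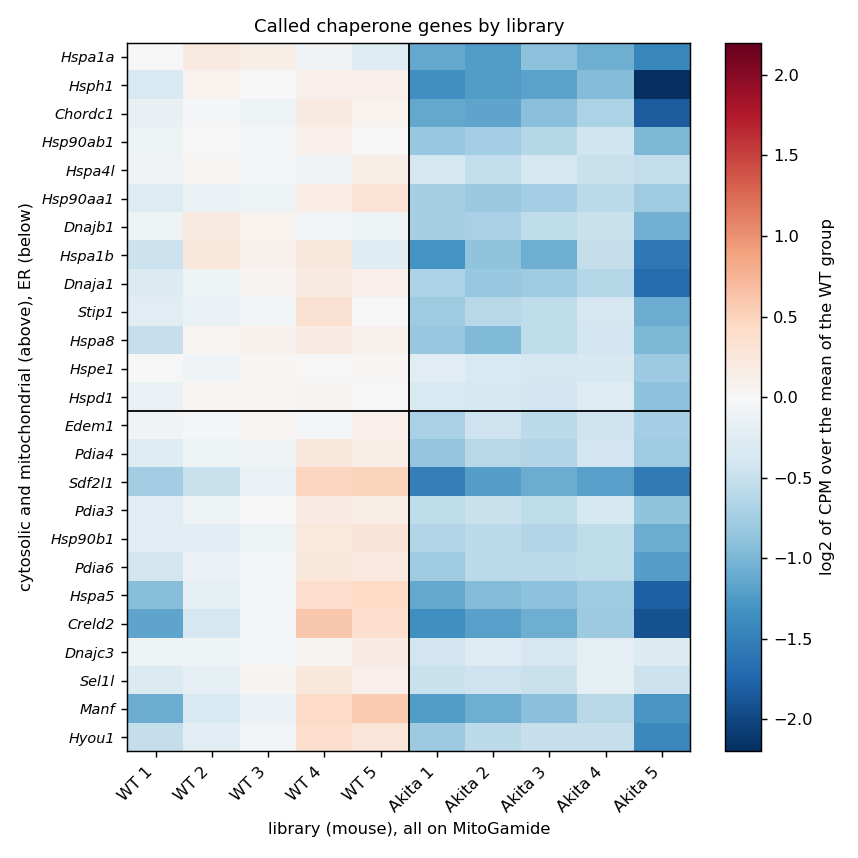
Log2 of CPM over the mean of the WT group for the 13 called cytosolic and mitochondrial chaperone genes (above the line) and the 12 called ER genes (below it) in each of 5 WT and 5 Akita libraries on MitoGamide, with blue for lower and red for higher. The Akita columns are blue throughout, Akita replicate 5 is the darkest in most rows, and WT replicate 1 is also low for Hspa5, Creld2 and Manf.

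ER chaperone genes are known to share a promoter motif, the ER stress response element, which is bound by ATF6 and NF-Y. It was searched as CCAAT and CCACG with 9 bases of any kind between them, on both strands in the 250 bases before the RefSeq start sites (GRCm38.p6), a search chosen after the list's result was known. It stood in 7 of the 26 listed ER genes with a promoter sequence, and in 0.13% of the 27025 genes with one. This excess describes the list and not the genotypes, since such genes are known to share the element. Of the 10 called genes with a promoter sequence, 5 held it, and Calr and Canx, which held it too, were not called (-0.45 and -0.21), except for Calr without Akita replicate 5 (-0.33, adjusted p = 0.0437). The motif, in capitals, and its neighbourhood are shown for called genes, 5′ to 3′ on the strand of the gene, with the element reading in reverse in Creld2.
Creld2: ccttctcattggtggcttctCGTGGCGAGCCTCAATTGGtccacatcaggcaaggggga
Pdia6: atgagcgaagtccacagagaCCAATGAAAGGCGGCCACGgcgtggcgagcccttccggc
Hsp90b1: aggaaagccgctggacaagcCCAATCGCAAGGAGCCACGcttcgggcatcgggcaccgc
Dnajc3: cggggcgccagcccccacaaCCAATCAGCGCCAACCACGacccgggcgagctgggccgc
Hspa5: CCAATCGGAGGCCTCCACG
These lie at chr15:88819500-88819558 (plus strand) for Creld2, chr12:17266471-17266529 (plus) for Pdia6, chr10:86705618-86705676 (minus) for Hsp90b1, chr14:118937807-118937865 (plus) for Dnajc3 and chr2:34772025-34772043 (plus) for Hspa5, where only the motif is shown because GENCODE also places an exon there. Hsp90b1 held a second match, 88 bases before its start site. Dnajc3, an ER co-chaperone, changed by -0.31 (a call lost without Akita replicate 3 or WT replicate 4), and Hsp90b1, the ER form of HSP90, by -0.69. The heat shock element was searched on both strands as GAA, TTC and GAA with 2 bases of any kind between neighbours. It stood in 0.514% of genes and in 2 of 15 cytosolic and mitochondrial chaperone genes with a promoter sequence. These were Hspd1 and Hspe1, which start in opposite directions from a shared stretch. Both matches overlap there, and the match nearer to Hspe1 is shown.
Hspe1: GAACCTTCCGGAA
It lies at chr1:55088064-55088076 on the plus strand, 71 bases before the start site of Hspe1. A match is a description of these letters and does not show that a factor was bound. The antioxidant response element, searched on both strands as TGACNNNGC, stood in 11.5% of genes and in 7 of 33 listed antioxidant genes with a promoter sequence, of which Abcc4 and Gclm were called.

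Extracellular matrix genes were higher in part. Of 57 tested, 17 were called higher and 5 lower, with a median log2 fold change of 0.45. The count rested on single libraries. It was 5, 5, 5 and 6 without WT replicates 1, 2, 3 and 4 and 8 without Akita replicate 2. In WT replicate 5 several matrix genes were as high as in Akita mice, and without it 31 were called higher and 5 lower. Fn1, which encodes fibronectin (ENSMUSG00000026193.15, chromosome 1, 71585520 to 71653200), was at 83.7, 121, 55.9, 70.3 and 69.9 CPM in Akita and 25.1, 25.3, 23.8, 36.9 and 71.6 in WT mice, with WT replicate 5 within the Akita range. Its log2 fold change was 1.13 (SE 0.31, with an adjusted p of 0.0304 in edgeR's quasi-likelihood test), 1.53 without WT replicate 5 (adjusted p = 0.00215), and the call was lost without Akita replicate 2 or WT replicates 1, 2, 3 or 4 (adjusted p up to 0.0779). Among the collagen IV genes of the basement membrane, Col4a2 rose by 0.62 (adjusted p = 0.037) and Col4a1 differed by 0.40 (adjusted p = 0.151), or 0.60 without WT replicate 5 (adjusted p = 0.0121). Col4a3 and Col4a4, chains of the glomerular network, fell by 0.37 and 0.49. Lox, which crosslinks collagen, was at 35 CPM in Akita replicate 5, between 3.01 and 5.5 CPM in the other Akita mice and between 1.28 and 1.94 CPM in WT mice. It rose by 2.61, and by 1.22 without that library, and the calls of Lox and Col4a2 were lost without WT replicates 1, 2, 3 or 4 and without Akita replicates 1 or 2 or WT replicates 1, 2, 3 or 4. The fibroblast and mesangial markers had a median log2 fold change of 0.57. They summed to 192 to 286 CPM of the library total in Akita and 129 to 273 CPM in WT libraries. Of 9 tested markers 1 was called higher, or 6 without WT replicate 5. None was called without Akita replicates 1, 2 or 4 or WT replicates 1, 2, 3 or 4. Their part in the matrix result was not tested.

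The BMP antagonist gene Grem1 showed the largest rise of its list. Grem1, which encodes gremlin 1 (ENSMUSG00000074934.3, chromosome 2, 113746164 to 113758646), was at 2.8, 13.1, 4.31, 8.79 and 12.2 CPM in Akita and 0.321, 0.177, 0.131, 0.0672 and 0.181 in WT mice, giving a log2 fold change of 5.48 (SE 0.55, with an adjusted p of 0.000148 in edgeR's quasi-likelihood test). Its WT values rest on few counts, so that the fold change is imprecise, but the groups did not overlap. In the whole list of TGF-beta and BMP signalling, 8 of 31 tested genes were called higher and 0 lower. Of the ligands, Bmp2 rose by 1.33, Tgfb3 by 1.17 and Bmp6 by 0.58, whereas Tgfb1 differed by 0.08 (adjusted p = 0.713), and none of the 14 tested receptors and transducers was called by edgeR or DESeq2, with 5 at an unadjusted p under 0.05. The call of Tgfb3 was lost without Akita replicates 2, 3, 4 or 5 or WT replicates 1, 2, 3 or 4.

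Some markers of injured tubules and some p53 targets were higher. Of 22 tested genes of tubular injury and repair, 8 were called higher and 1, Il34, lower. Spp1, which encodes osteopontin (ENSMUSG00000029304.14, chromosome 5, 104435118 to 104441050), was at 661, 869, 779.7, 565 and 1442 CPM in Akita and 266, 288, 313, 322 and 386 in WT mice, giving a log2 fold change of 1.45 (SE 0.22, with an adjusted p of 0.00195 in edgeR's quasi-likelihood test). The keratin genes Krt18 and Krt19 rose by 1.38 and 2.84. Markers of principal cells were also higher in part, as given below, and their part in the rise of the keratins was not tested. Lcn2, which encodes the injury marker NGAL, rose by 2.56 from low levels. Lcn2 was at 0.839, 5.39, 1.29, 0.954 and 3.95 CPM in Akita and 0.321, 0.177, 0.392, 0.403 and 0.678 in WT mice. Havcr1, which encodes KIM-1, was too low to be tested, and Cst3, which encodes cystatin C, differed by 0.30 (adjusted p = 0.103) and was called at 0.40 without WT replicate 5 (adjusted p = 0.0262). Of 23 tested p53 targets and genes of cell-cycle arrest, 10 were called higher and 0 lower, with a median log2 fold change of 0.59. Cdkn1a, the cyclin-dependent kinase inhibitor p21 (ENSMUSG00000023067.14, chromosome 17, 29090976 to 29100727), was at 9.23, 11.2, 9.42, 13.9 and 54.7 CPM in Akita and 3.02, 3.0, 2.74, 2.75 and 5.74 in WT mice. It rose by 2.46 (SE 0.52, adjusted p = 0.0105), and by 1.62 without Akita replicate 5. Phlda3, an AKT inhibitor, rose by 1.6, Ccng1 by 0.83 and Mdm2 by 0.39, while Trp53 itself differed by 0.07 (adjusted p = 0.721). In the list of proliferation, 6 of 22 tested genes were called higher and 0 lower (between 2 and 6 higher when single libraries were omitted), among them Rrm2 (1.16) and Ccnb1 (0.94). Mki67, the marker of cycling cells, differed by 0.25 (adjusted p = 0.3). The call of Mdm2 was lost without Akita replicate 2 or WT replicates 2, 3 or 4 and that of Ccnb1 without WT replicates 1, 2, 3 or 4. Ccnb1 was called in 5 of the 10 fits with 1 library omitted, and in the others it was not called or not tested.

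Immediate early genes, which respond within minutes to stress and to handling of the tissue, were called higher in 7 of 19 tested genes and lower in 0, with a median log2 fold change of 0.72 (between 3 and 8 higher when single libraries were omitted). Egr1 was at 3.71, 3.37, 4.95, 4.29 and 6.32 CPM in Akita and 1.86, 1.94, 3.13, 2.35 and 2.35 in WT mice, giving a log2 fold change of 0.95 (SE 0.21, with an adjusted p of 0.0133 in edgeR's quasi-likelihood test). Nr4a1, Klf4 and Jun rose by 1.95, 1.27 and 0.60, and Fos differed by 1.34 without a call (adjusted p = 0.12). Without Akita replicate 5 Nr4a1 rose by 1.23 and Klf4 by 0.78, and their calls were lost without WT replicates 1, 2 or 3 and without WT replicates 1, 2, 3 or 4. Few immune genes were called. Of 49 tested interferon-stimulated and antigen presentation genes, 2, Ly6e and Igtp, were called lower and 0 higher (Igtp not without Akita replicates 3 or 4 or WT replicate 2), and none of 12 macrophage markers was called by edgeR or DESeq2, with 1 at an unadjusted p under 0.05 and 2 called higher without WT replicate 5. Of 12 lymphocyte markers 3 reached the minimum count, and 2 of these were called lower (between 0 and 2 when single libraries were omitted). They were Ptprc, which all leukocytes express (-0.58, adjusted p = 0.0276), and the T cell gene Cd8a (-0.81, adjusted p = 0.0391), whose calls were lost without Akita replicates 2 or 4 or WT replicate 2 and without Akita replicates 2, 3, 4 or 5 or WT replicates 3, 4 or 5. The summed level of the lymphocyte list was 12.5 to 18.6 CPM of the library total in Akita and 19.8 to 33.2 in WT libraries, without overlap. Of 18 tested complement genes, 1 was called higher and 2 lower (16.7%, against 14.3% of all tested genes). C3 changed by 2.62, C4a by -2.1 and Cfb by -0.73, and Cfb kept its call in all 10 fits with 1 library omitted. C4a averaged 10.6 counts per library, is near-identical to another complement gene and fell under the minimum count without WT replicates 2, 3 or 5, and its call was kept in the other 7 fits with 1 library omitted. C3 had 14.7, 27.2, 50.9, 20.4 and 235 CPM in Akita and 10.5, 11, 10.4, 10.1 and 14.1 CPM in WT mice, and rose by 1.33 without Akita replicate 5, with the call lost without WT replicates 1, 2, 3 or 4.

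Markers of principal cells, the distal convoluted tubule, podocytes and endothelium were higher in part, and those of other distal cells were mostly not called. Of 8 tested markers of the thick ascending limb 0 were called higher and 1, the claudin gene Cldn10, lower (-0.92), with a median log2 fold change of -0.095 and summed levels of 1690 to 3080 CPM in Akita and 2670 to 3200 CPM in WT libraries. Of 8 tested intercalated cell markers 1, the water channel gene Aqp6, was called higher (0.67, lost without Akita replicate 4 or WT replicates 1, 2 or 3), and the sums overlapped, at 210 to 297 CPM in Akita and 193 to 250 CPM in WT libraries. Of 8 tested principal cell markers 5 were called higher and 0 lower, with summed levels of 228 to 364 CPM in Akita and 178 to 221 CPM in WT libraries. Aqp2, the vasopressin-regulated water channel of the collecting duct (ENSMUSG00000023013.5, chromosome 15, 99579055 to 99584547), was at 55.2, 129, 101, 106 and 122 CPM in Akita and 19.97, 31.8, 39.5, 40.03 and 37.1 in WT mice, giving a log2 fold change of 1.61 (SE 0.23, with an adjusted p of 0.00147 in edgeR's quasi-likelihood test). The sodium channel subunits Scnn1b and Scnn1g rose by 0.56 and 0.78. Markers of the inner medulla and urothelium moved with these genes. Of 3 tested, 2 were called higher, also in every fit with 1 library omitted, among them Bdkrb2, which encodes a bradykinin receptor (1.96), and the list summed to 18.1 to 51.9 CPM in Akita and 21.1 to 28.1 CPM in WT libraries. Their part in the rise of collecting duct genes was not tested. In the distal convoluted tubule, Calb1, which encodes the calcium buffer calbindin, rose by 1.24 (0.85 without Akita replicate 5) and the calcium channel Trpv5 by 0.53, whereas Slc12a3, which encodes the sodium chloride cotransporter, differed by 0.23 without a call. Podocyte genes were called higher in 6 of 12 (between 1 and 7 when single libraries were omitted), among them Nphs1, which encodes nephrin (0.76), whose call was lost without Akita replicates 2 or 3 or WT replicates 1, 2, 3 or 4. Of 12 tested endothelial markers 5 were called higher, or 9 without WT replicate 5 and 3 without WT replicate 1, 2, 3 or 4, with summed levels of 847 to 1150 CPM in Akita and 643 to 1110 CPM in WT libraries. Blood markers overlapped widely, at 817 to 2660 CPM in Akita and 592 to 2500 CPM in WT libraries, with 0 of 5 called by edgeR or DESeq2 and 0 at an unadjusted p under 0.05. Adrenal, fat and liver markers were low, at sums of at most 6.05, 2.68 and 62 CPM. Liver markers had 1 of 4 tested genes called higher (between 0 and 2 when single libraries were omitted). Their median sum was 46.1 CPM in Akita and 20.5 CPM in WT libraries, with overlapping ranges (15.4 to 62 and 17.7 to 40.3 CPM). The adrenal aldosterone synthase gene Cyp11b2 had no count in any library.

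**Figure D4:**
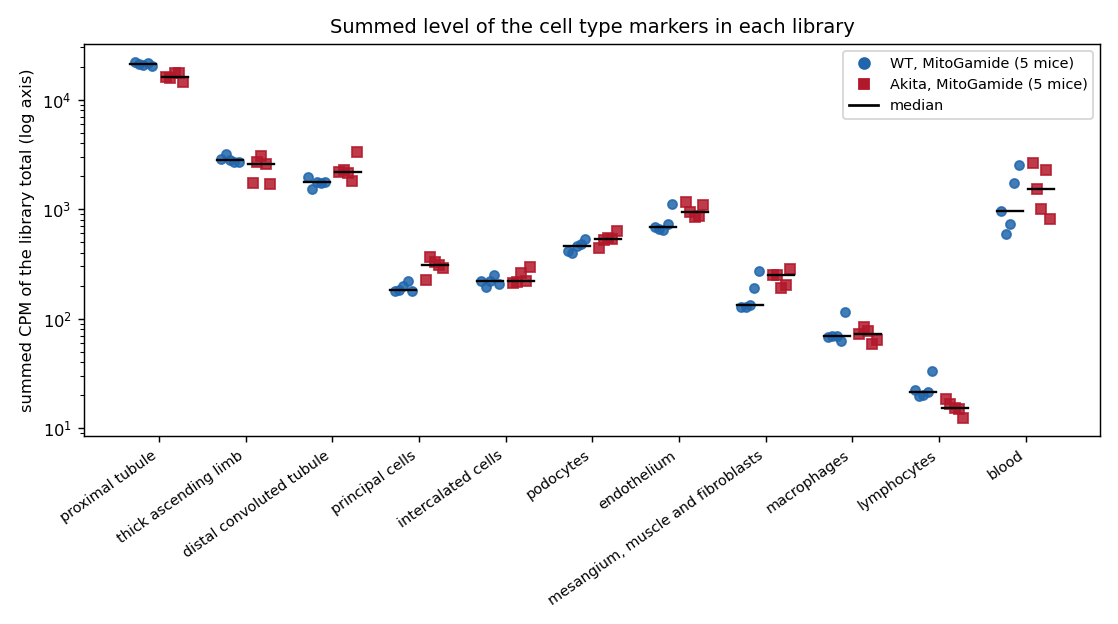
Summed CPM of the library total on a log axis for the marker lists of 11 cell types in each of 5 WT (blue circles) and 5 Akita (red squares) libraries, all on MitoGamide, with the group median as a black line. Proximal tubule sums do not overlap (14300 to 17600 CPM in Akita, 20100 to 22100 CPM in WT), principal cell sums are higher in every Akita library, and WT replicate 5 is the highest WT library for endothelium, fibroblasts, macrophages and lymphocytes.

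The proximal tubule markers that fell were the endocytic receptor Lrp2, which encodes megalin (-0.57), the fatty acid transporter Slc27a2 (-0.45), Ggt1 (-0.50) and the phosphate transporter Slc34a1 (-0.45). Their calls were lost without Akita replicate 2 for Lrp2, without Akita replicate 2 or WT replicates 2 or 3 for Slc27a2, without Akita replicates 1, 2 or 3 or WT replicates 1, 2, 3, 4 or 5 for Ggt1 and without Akita replicates 1, 2 or 3 or WT replicates 1, 2, 3 or 4 for Slc34a1. Lrp2 was at 4401, 3968, 4804, 4995 and 3507 CPM in Akita and 6163, 7118, 6370, 6007 and 6495 CPM in WT mice. Other markers of the same cells differed little, such as Slc22a6 (-0.03) and Slc5a12 (0.07), and no single marker kept its call in every fit with 1 library omitted, since none was called without Akita replicate 2. In the renin-angiotensin list, 4 of 14 tested genes were called higher and 1 lower. Agt, which encodes angiotensinogen, was at 19, 39.2, 49.5, 54.8 and 57 CPM in Akita and 18.4, 25.3, 10.7, 12 and 17.2 CPM in WT mice, giving a log2 fold change of 1.4 (SE 0.29, with an adjusted p of 0.00992 in edgeR's quasi-likelihood test). Ace, which encodes the converting enzyme of the proximal brush border, was at 39.9, 78, 65.9, 123 and 28 CPM in Akita and 184, 206, 176, 137 and 156 CPM in WT mice, giving a log2 fold change of -1.36 (SE 0.31, adjusted p = 0.0154). Sgk1, an aldosterone-induced kinase, rose by 1.05, while Ren1, which encodes renin, differed by -0.30 (adjusted p = 0.726). In the circadian clock 2 of 19 tested genes were called, both higher (2 to 5 higher when single libraries were omitted). The repressors Ciart and Bhlhe41 rose by 1.83 and 1.71, and Arntl, which encodes BMAL1, differed by -0.88 without a call (adjusted p = 0.179).

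Receptor genes of the nose, most of which did not reach the minimum count here, were lower in part. Of 1410 olfactory receptor genes, 135 reached the minimum count, and 29 of these were called lower and 0 higher (between 13 and 39 lower when single libraries were omitted), with a median log2 fold change of -0.59. Of 98 tested vomeronasal receptor genes, 31 were called lower and 0 higher (between 17 and 35 lower), with a median of -0.62. In all, counts on olfactory receptor genes averaged 342 ± 71.7 CPM of the library total among Akita and 555 ± 118 CPM among WT mice (SD, n = 5), with p = 0.00794 by the 2-sided exact permutation test. With the TMM effective library size p was 0.0159 by the same test. The sums also differed between libraries of a group, from 249 to 445 CPM among Akita and from 448 to 748 CPM among WT mice. Vmn1r18, with a mean of 508 counts per library, changed by -2.08 (adjusted p = 0.000913 in the edgeR test) and Olfr635 by -0.86. Olfr1393 differed by -0.11 (SE 0.29, adjusted p = 0.826). RNA integrity was not analysed here, and its part in these counts was not tested.

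The same contrast of genotypes was available in 3 other arms that share no library with this one. On the ethanol vehicle without the drug, 2910 genes (16.4%) were called (8.18% higher and 8.22% lower), on water 101 (0.552%) and with MitoQ, a mitochondria-targeted antioxidant, 101 (0.557%). Of the 2386 genes called under MitoGamide, 1279 were called the same way on the ethanol vehicle (53.6% of the former and 44% of the latter), 705 higher and 574 lower, and 0 were called the opposite way. Of the MitoGamide calls 96.4% had the same sign on the ethanol vehicle, against 73.1% of all genes tested in both. With water 88 genes were shared (3.69% of the MitoGamide calls and 87.1% of the water calls) and with MitoQ 85 (3.56% and 84.2%). Of the MitoGamide calls tested there, 78% had the same sign on water, against 59.4% of all genes, and 92.9% with MitoQ, against 69.4%. The numbers of shared genes depended on the fit. In a fit of all 40 libraries they were 648 for the ethanol vehicle, 307 for water and 238 for MitoQ. In the same order they were 1587, 245 and 321 with DESeq2 and 1162, 29 and 44 with a replicate block. Across the 16616 genes tested in both arms, the log2 fold changes under MitoGamide and on the ethanol vehicle had a Spearman correlation of 0.628, where genes are not independent replicates. The correlation with water was 0.316 and that with MitoQ 0.523, each over 16499 genes. The fold changes of the genes called under MitoGamide had a median size of 0.66 here and 0.38 on the ethanol vehicle, but the genes were selected on the former.

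Kynu rose by 2.25 under MitoGamide, by 2.56 on the ethanol vehicle, by 2.9 on water and by 2.48 with MitoQ, and Lpl changed by -2.09, -2.1, -2.32 and -1.85 in the same order, each called by edgeR in all 4 arms. Grem1 changed by 5.48, 3.57, 5.74 and 4.42, again called in all 4. Many chaperone genes were called lower in both ethanol-containing arms. Of the cytosolic and mitochondrial genes, 13 of 20 were called lower under MitoGamide and 17 of 20 on the ethanol vehicle, and of the ER genes 12 of 27 and 20 of 28. On water and with MitoQ the list of cytosolic and mitochondrial chaperones had medians of -0.53 and -0.35, against -0.56 under MitoGamide and -0.84 on the ethanol vehicle. Hsph1 changed by -0.90 and -0.61 on water and with MitoQ (adjusted p of 0.137 and 0.381 from edgeR). Whether the effect differed from that on water or with MitoQ was not tested. Immediate early genes were called higher in 7 of 19 here and 1 of 19 on the ethanol vehicle, and respiratory chain genes in 21 and 11 of 82. The proteasome had 0 of 37 called here but 14 lower and 1 higher on the ethanol vehicle. Olfactory receptor genes were called lower in 29 of 135 here, against 5 lower and 1 higher of 172 on the ethanol vehicle. Their median was -0.59 here, -0.135 on the ethanol vehicle, 0.08 on water and -0.10 with MitoQ. For vomeronasal receptors 31 of 98 were lower here and 7 of 111 on the ethanol vehicle, with medians of -0.62, -0.21, 0.08 and -0.15 in the same order. Neither family had a call on water or with MitoQ.

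Whether the genotype effect differed between MitoGamide and its vehicle was tested as an interaction over the 20 libraries of both arms. By edgeR's quasi-likelihood test 0 of 17256 genes (0%) had an adjusted p under 0.05, while 1435 (8.32%) had an unadjusted p under 0.05, and DESeq2 called 0. Among the 5 genes with the smallest p were the pseudogene Gm10259, Nhs, Cpe and 6030442K20Rik, each at an adjusted p of 0.528. Cpe changed by -1.38 under MitoGamide and by -2.15 on the ethanol vehicle, a difference of 0.76 (unadjusted p = 0.000274 from edgeR). So the differences in counts between both arms named above were not shown to be differences between the arms, and a p that misses the threshold does not show that the effects were alike.

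**Figure D5:**
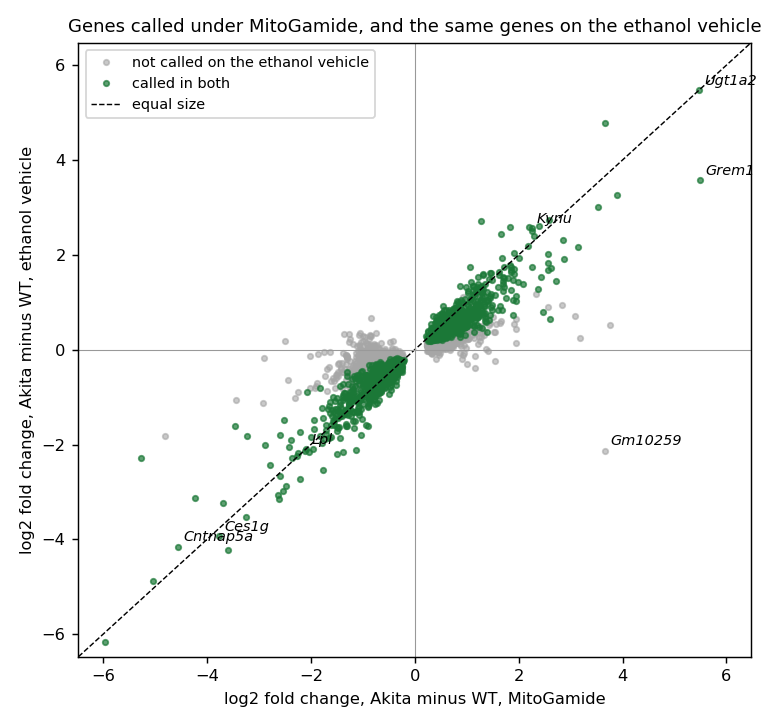
Log2 fold changes of the genes called under MitoGamide (horizontal axis) and of the same genes on the ethanol vehicle (vertical axis), with genes called in both in green, those not called on the ethanol vehicle in grey and a dashed line of equal size. Genes called in both lie at the upper right and lower left and Ugt1a2 is at 5.47 on the horizontal axis.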

How the data were processed

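Per the labels and the study's methods, renal cortex RNA of single mice was depleted of rRNA and sequenced as directional single reads. The authors trimmed reads with Skewer and deposited estimated counts per gene from kallisto 0.46.1, as whole numbers, over GENCODE mouse release 25 transcripts (GRCm38), and their test was DESeq2. Estimation divides reads among near-identical genes. Gene symbols, positions and biotypes were taken from GENCODE release 21, which held 99.5% of the 55401 identifiers, and promoters from RefSeq (GRCm38.p6).

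The deposited estimated counts were tested with edgeR 4.0.16 in R 4.3.3 (quasi-likelihood test, TMM, mean of at least 10 counts, Benjamini-Hochberg adjusted p under 0.05) on the 10 libraries alone. In simulated data of this comparison, 200 genes were changed 2-fold, and 87.5% of them were recovered among 16462 tested genes. The 200 were drawn only from genes well above the minimum count, and no library was made an outlier. Recovery at low counts or with an outlying library was therefore not measured. Depth was 11690029 to 21357309 counts per library, and no libraries were duplicates. Members and lists were chosen with earlier results of these data known. Respiratory chain, ribosomal protein, proteasome, mitochondrial genome and receptor families were taken by symbol pattern. Named by rule were 12 higher and 12 lower protein-coding genes whose groups did not overlap, by smallest p, up to 4 called genes of each list (or the 2 most abundant), the 5 smallest interaction p and the genes the study names. Some of these genes are not reported here. Other genes in the text were chosen from the lists after their values were seen. Alternatives were DESeq2 1.42.0, RLE, 2 count filters, a fit of all 40 libraries, a replicate block and each library left out. Counts per list without each library, with RLE and with DESeq2 were added after seeing the data.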

Additional observations from a re-analysis of the deposited data

Results flagged for a closer look

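In 49 of 266 groups of 5 values, the highest or lowest mouse lay farther from the others than Dixon's criterion allows at the 95% level (0.71). Chance would give about 13.3 in independent groups, which these are not, since they share libraries and some genes were chosen by their values. Not every gene in the text was examined, and C3 was left out. The flagged values were 49 in number. Of these, 31 were of Akita replicate 5, with no explanation tested.

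Akita replicate 5 was the highest Akita library for many of the flagged genes of metabolism. It held 8086 CPM of Pck1 (2388 to 3888 in the other Akita mice), 916 of G6pc, 63.5 of Pfkfb3, 98.5 of Slc5a1, 376 of Slc2a2 and 48.7 of Slc2a9. For fatty acid oxidation it held 1551 CPM of Cyp4a14, 299 of Pdk4, 345 of Acaa2, 30.1 of Cpt1b and 60.9 of Slc25a20. The amino acid enzymes Glud1, Gldc and Bhmt were at 1150, 605 and 82.2 CPM, and Nampt at 220.6 CPM. The respiratory chain genes Atp5o and Ndufa7 were at 227 and 67.2 CPM. Other high values were 1337 CPM of Calb1, 54.7 of Cdkn1a, 35 of Lox, 21.5 of Klf4, 2.84 of Fos, 96.1 of Xbp1 and 17.9 of Vmn1r18. The same library was the lowest Akita library for several chaperones, with 218 CPM of Calr, 80.5 of Dnaja1, 226 of Hsp90b1, 204 of Hspd1 and 29.9 of Hspe1. It was also the lowest for Trp53 at 10.7 CPM and for pseudogenes, at 19380 CPM of the library total (25860 to 27270 in the others).

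WT replicate 5 was the highest WT library for Fn1 (71.6 CPM, against 23.8 to 36.9 in the others), Sparc (100.1), Ptprc (25.04), Cdkn1a (5.74) and Phlda3 (3.48), and the lowest for pseudogenes at 21260 CPM of the library total. WT replicate 1 was high for Ppargc1a at 95.4 and Olfr635 at 28.1 CPM and low for Hspd1 at 346 and Nphs1 at 8.09 CPM. WT replicate 2 was high for Ugt1a10 at 7.95 and Cryab at 16.9 CPM and low for Hspe1 at 49.4 CPM. Lpl was at 522 CPM in WT replicate 3, and WT replicate 4 held 19.9 CPM of Hsf1. Akita replicate 2 was high for Kynu at 44.9 and low for Pck2 at 9.51 CPM, and Akita replicate 4 was high for Met at 164 CPM.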

How the results depend on the processing

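Without 1 of the 10 libraries at a time, edgeR called 1248 to 2822 genes against 2386 with all, and 840 to 1437 instead of 1279 were shared with the ethanol vehicle. The lowest values were those without WT replicate 2. In a fit of all 40 libraries, genes shared with the ethanol vehicle were 648, with water 307 instead of 88 and with MitoQ 238 instead of 85. With DESeq2 the latter were 245 and 321. The cause of these changes was not tested. The replicate numbers did not pair the libraries: same-numbered libraries correlated at -0.0158 to 0.0897, and 2 of 5 Akita libraries correlated best with their own number. With a replicate block 2282 genes were called, 29 shared with water and 44 with MitoQ, and the log2 differences of the mitochondrial (0.221) and olfactory receptor shares (-0.701) had an exact p of 0.0625, the smallest that 5 pairs allow. The pseudogene share differed by -0.167 (exact permutation p = 0.31) and by -0.266 to -0.076 without single libraries, the former without WT replicate 5 (p = 0.0159). RLE, no filter and a minimum of 10 counts in every library gave 2355, 1947 and 2215 calls. All genes called with all libraries had the same sign wherever they were tested under the alternatives run. For the named genes, 3634 alternative values kept their direction and side of the threshold, 324 lost the call and 30 gained one. The interaction had 0 calls under each alternative run.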
